A study of Mus musculus with 12 samples.

Results

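The ceramide genes of the skin barrier examined here, Acer1, Elovl1, Elovl4, Lipm, Abca12, Abhd5, Ugcg, Cers3 and Smpd1 (9 genes), were followed across 5 fractions of keratinocytes sorted from mouse back skin. They were taken by name as a list of genes that make, modify, move or break down these lipids, and each is represented by the probe set of highest mean signal among those that the platform annotation assigns to that gene alone. The 9 genes are part of 18193 genes measured on each of 12 arrays. The list was put together with earlier results of these data known.

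Ceramides are built from a sphingoid base and a fatty acid. In the upper epidermis the fatty acid is elongated to an unusually long chain, and part of these ceramides carry an additional linoleic acid, which makes them acylceramides. The precursors are glucosylated, packed into lamellar granules, secreted at the border of the granular layer and the cornified layer, and converted there into the lipid sheets and the lipid envelope that limit water loss. Inherited defects of ELOVL4, CERS3, ABHD5 and ABCA12 are known to impair the barrier and cause ichthyosis.

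The groups are BL LRC (n = 3), BL non-LRC (n = 3), SL LRC (n = 2), SL non-LRC (n = 2) and GL (n = 2). The labels do not spell these names out; background knowledge of the study reads BL, SL and GL as the basal, spinous and granular layers and LRC as label-retaining cell. All mice, the donors of every group, carried K5-tTA together with pTRE-H2B-GFP, and K14-CreER with a tdTomato reporter at Rosa26. All received doxycycline at 1 g/kg in food for 2 weeks and 1 dose of tamoxifen at 75 mg/kg, and were killed 1 week after it at second telogen. The keratin 5 and keratin 14 promoters drive their transgenes in basal keratinocytes, those of hair follicles and glands included, so GFP retained in SL or GL cells was made before the cells left that compartment. The sources used here give no age, no sorting gates and no word on whether the samples of a group come from separate animals, so the p-values measure the spread between these samples, which may be technical. In such sorted pools, fewer cells of a type and less RNA per cell cannot be told apart.

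The values are linear array intensities. A background level was set on each array from bacterial control probe sets and lay between 22.4 and 42.6 units, and the probe sets used for the 9 genes were above it on all 12 arrays. Signal of the bacterial hybridisation control BioB placed BL LRC 1, BL non-LRC 1 and both SL non-LRC arrays in a low set (467 to 524 units) and the other 8 arrays in a high set (2885 to 3931 units), so within SL the array set and the label cannot be told apart. BL LRC 1 and BL non-LRC 1 also lacked the Y-linked signal that the other 10 arrays carried. Arrays of 1 group correlated at r = 0.925 to 0.932 across genes, and arrays of different groups at 0.865 to 0.929. The fractions carried the keratinocyte markers of their names only in part. Summed signal of 6 basal markers, such as Krt5 and Krt14, fell from between 82877 and 112394 units in BL to between 67146 and 69687 in GL. That of 6 granular markers, such as Lor and Ivl, rose from between 1729 and 4084 units in BL to between 6804 and 10329 in SL and between 13320 and 19639 in GL, with Flg never above background in BL. That of 5 spinous markers was 125743 to 136443 units in SL LRC but 76157 to 88947 in SL non-LRC. It was 87305 to 108451 in BL LRC, 58612 to 80260 in BL non-LRC and 97867 to 101318 in GL, so SL non-LRC did not stand out by these markers. GL also held Langerhans and myeloid markers at 25978 to 55486 units, against 1018 to 8029 in SL.

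Most of the barrier ceramide genes had their highest group mean in the label-retaining SL cells. The mean of SL LRC was the highest of the 5 groups for 8 of the 9 genes, and that of BL non-LRC was the lowest for 7. Over all genes, these shares were 22.2% and 19%. Both SL LRC arrays lay above the other 10 arrays for 5 genes (Acer1, Elovl4, Lipm, Abca12 and Abhd5), which holds for 3.73% of all genes. These patterns were singled out after the values were seen and are given without a test. The step from SL LRC to the group with the next highest mean passed for Acer1, Elovl4 and Lipm. It did not pass for Elovl1, Abca12, Abhd5, Ugcg and Cers3 (adjusted p 0.234 to 0.842), and Smpd1 had its highest mean in GL.

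**Figure D1:**
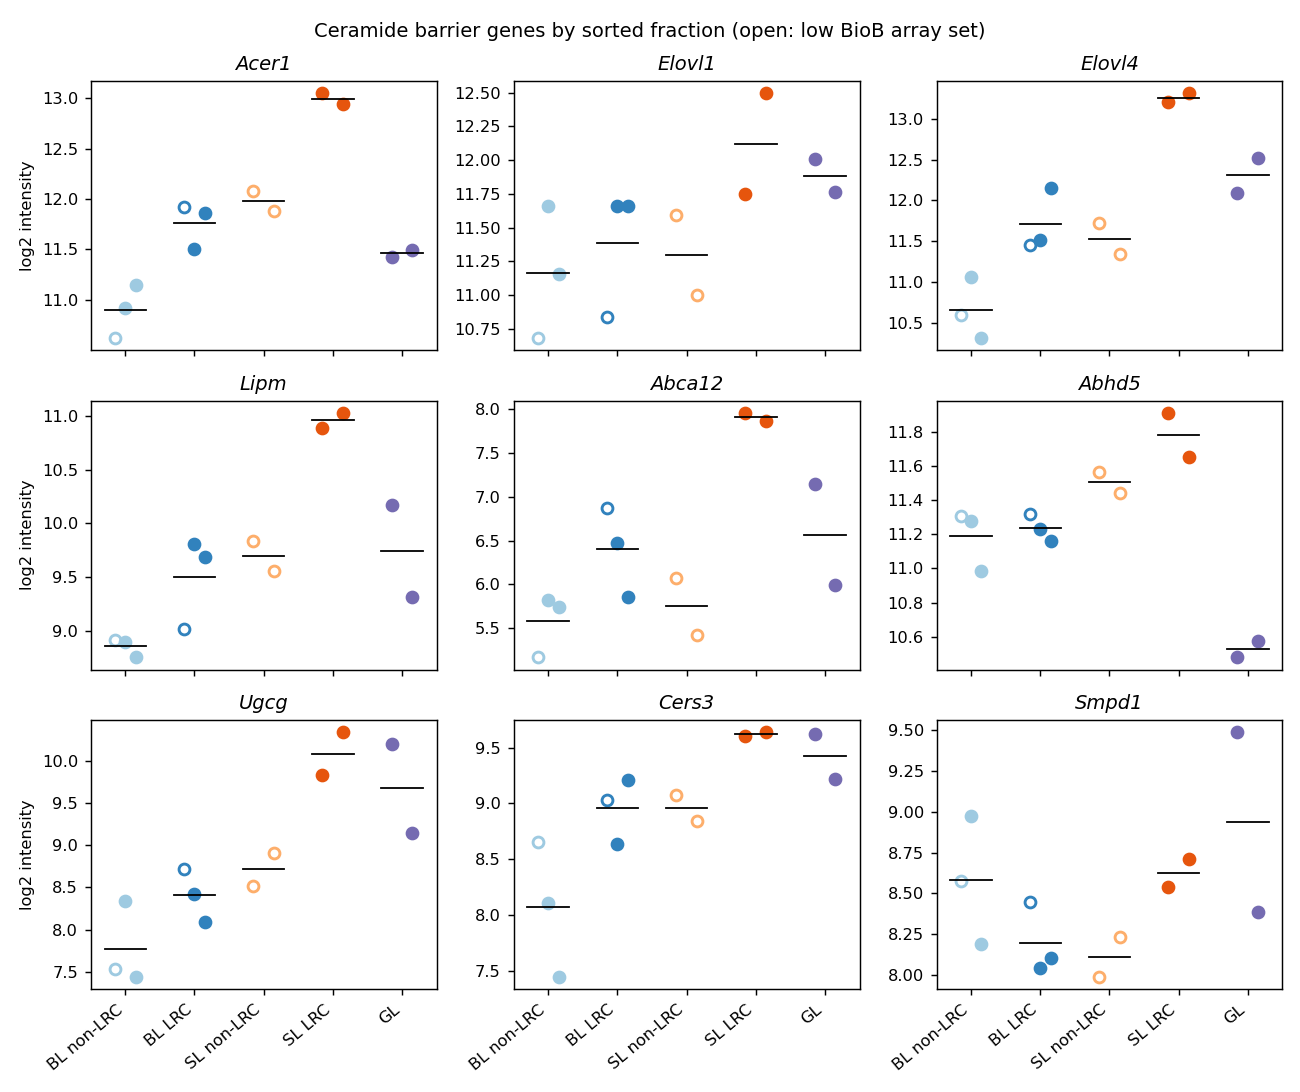
Log2 array intensity (each panel with its own axis) of the 9 genes in each of the 12 samples, grouped by sorted fraction. Each symbol is 1 sample, open symbols are arrays of the low BioB set and the line is the group mean of the log2 values. The SL LRC samples stand highest for Acer1, Elovl4, Lipm, Abca12 and Abhd5. In linear units GL returns to 2760 and 2882 for Acer1 and falls to 1425 and 1522 for Abhd5.

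Elovl4 makes the ultra-long fatty acids of acylceramides. Its signal was 2810, 2935 and 4552 units in the BL LRC samples, 1552, 2150 and 1278 in BL non-LRC, 9436 and 10159 in SL LRC, 3380 and 2594 in SL non-LRC, and 4383 and 5893 in GL. The label-retaining samples were above the others in both layers without overlap, and GL lay between the 2 SL groups. In BL the LRC level was 2.07-fold higher (1.05 ± 0.22 log2, SE, adjusted p = 0.0173), and in SL it was 3.31-fold higher (1.73 ± 0.26 log2, adjusted p = 0.00118). SL exceeded BL by 1.21 ± 0.17 log2 units (adjusted p = 0.000329) and GL exceeded BL by 1.12 ± 0.22 (adjusted p = 0.00128), while GL against SL was at -0.08 ± 0.23 (adjusted p = 0.895). The BL call for the label is the least firm of these. It was lost without BL LRC 3 (adjusted p = 0.117), without BL non-LRC 3 (0.103) and when arrays were centred on their medians (0.81 log2, adjusted p = 0.120).

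Elovl1 elongates saturated fatty acids to the very long lengths that precede this step. It stood at 1831, 3240 and 3232 units in the BL LRC samples, 1642, 3236 and 2287 in BL non-LRC, 3441 and 5777 in SL LRC, 3096 and 2047 in SL non-LRC, and 4121 and 3469 in GL. The BL groups overlapped, and SL LRC 2 was the highest sample. None of the label and layer comparisons passed the test with this probe set, with GL against BL at 0.61 ± 0.27 log2 (adjusted p = 0.152) and the SL label at 0.82 ± 0.33 (adjusted p = 0.204). Nor did any pair of groups, where SL LRC over BL non-LRC came nearest (0.96 log2, adjusted p = 0.0757).

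Cers3 is the ceramide synthase that joins the ultra-long acyl chain to the sphingoid base. Its signal was 522, 399 and 592 units in the BL LRC samples, 403, 275 and 174 in BL non-LRC, 779 and 797 in SL LRC, 539 and 458 in SL non-LRC, and 790 and 597 in GL. Signal was higher in GL than in BL by 0.91 ± 0.30 log2 units (adjusted p = 0.0434). That call did not survive 6 of the 8 fits with 1 sample removed (adjusted p up to 0.342) or the replicate number as a block (0.82 log2, adjusted p = 0.0776). The block ties GL to BL samples by number, and whether these pair was not checked. SL was above BL by 0.78 ± 0.23 (adjusted p = 0.0706), which did not pass. SL LRC exceeded BL non-LRC by 1.55 log2 units, or 2.94-fold (adjusted p = 0.0075).

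Ugcg transfers glucose to ceramide, the form in which barrier ceramides are loaded into granules. It measured 422, 343 and 272 units in the BL LRC samples, 185, 322 and 173 in BL non-LRC, 908 and 1294 in SL LRC, 367 and 480 in SL non-LRC, and 1179 and 565 in GL. SL LRC and GL 1 were the high samples, and GL 2 stood well below GL 1. The gene rose in SL over BL by 1.31 ± 0.26 log2 units (adjusted p = 0.00551) and in GL over BL by 1.58 ± 0.33 (adjusted p = 0.00254). The GL call was lost without GL 1 (1.05 log2, adjusted p = 0.134). The SL label effect of 1.37 ± 0.40 did not pass (adjusted p = 0.0686).

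Abca12 is the transporter that fills lamellar granules with lipid, and its probe set was near background in BL non-LRC and SL non-LRC. It read 117, 89 and 58 units in the BL LRC samples, 36, 57 and 54 in BL non-LRC, 249 and 234 in SL LRC, 67 and 43 in SL non-LRC, and 141 and 64 in GL. Within each layer the label-retaining samples lay above the non-LRC samples, in BL only narrowly (58 against 57 units). The log2 difference in SL, 2.16 ± 0.64 (4.48-fold), did not pass at an adjusted p of 0.0669. It passed narrowly in 3 of the alternatives (0.0416 to 0.0495) and not in the other 12 (0.0692 to 0.336). The difference in BL was 0.82 ± 0.52 (adjusted p = 0.610). Of all pairs of groups, SL LRC against BL non-LRC alone passed for this gene, at 2.34 log2 (adjusted p = 0.0197).

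Lipm encodes an acid lipase of the outer living epidermis. Its signal was 516, 894 and 822 units in the BL LRC samples, 481, 477 and 430 in BL non-LRC, 1900 and 2097 in SL LRC, 916 and 755 in SL non-LRC, and 1152 and 635 in GL. SL LRC stood at more than double each SL non-LRC sample, and the GL samples lay apart from each other. In SL the label-retaining cells were higher by 1.26 ± 0.31 log2 units (2.40-fold, adjusted p = 0.0291), and SL exceeded BL by 1.16 ± 0.20 (adjusted p = 0.00200). The SL label call was lost in each of the 4 fits that left out 1 sample (adjusted p 0.0753 to 0.221), whereas SL against BL was kept in all 10 (highest 0.0178).

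Abhd5 is the co-activator that lets lipases release fatty acids from stored triglyceride and supply acylceramide synthesis. It read 2562, 2408 and 2293 units in the BL LRC samples, 2531, 2480 and 2030 in BL non-LRC, 3861 and 3231 in SL LRC, 3036 and 2788 in SL non-LRC, and 1425 and 1522 in GL. All 4 SL samples were above all 6 BL samples, and both GL samples were below every other sample. This was the one gene of the 9 that fell in GL against both layers, by 1.12 ± 0.16 log2 against SL (adjusted p = 0.000315) and by 0.69 ± 0.15 against BL (adjusted p = 0.00394; 0.0638 without GL 1). The rise of SL over BL was small, at 0.43 ± 0.12 (adjusted p = 0.0471). It was lost in 9 of 10 fits that left out 1 sample and with the replicate block (0.36, adjusted p = 0.131). The block ties SL to BL samples by number, and whether these pair was not checked.

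Acer1 is the alkaline ceramidase of the upper epidermis and hydrolyses ceramide to sphingosine and fatty acid. Its signal was 3878, 2905 and 3715 units in the BL LRC samples, 1576, 1943 and 2271 in BL non-LRC, 8483 and 7882 in SL LRC, 4343 and 3765 in SL non-LRC, and 2760 and 2882 in GL. The label-retaining samples were above the others in both layers. GL was below every SL sample and inside the range of BL. The gene rose with the label 1.82-fold in BL (0.86 ± 0.16 log2, adjusted p = 0.0107) and 2.02-fold in SL (1.02 ± 0.20, adjusted p = 0.00756). It rose by 1.16 ± 0.13 log2 from BL to SL (adjusted p = 4.07e-05) and fell by 1.03 ± 0.17 from SL to GL (adjusted p = 0.00120), leaving GL against BL at 0.13 ± 0.16 (adjusted p = 0.682). Both layer calls were kept in every fit that left out 1 sample. The BL label call was lost without BL LRC 3 (adjusted p = 0.0610) and with median centring (0.62 log2, adjusted p = 0.119), and the SL label call without SL LRC 1 (0.0811) or SL non-LRC 2 (0.111).

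Smpd1, the acid sphingomyelinase that releases ceramide from sphingomyelin, was the exception to the pattern. It measured 349, 263 and 275 units in the BL LRC samples, 382, 503 and 292 in BL non-LRC, 372 and 418 in SL LRC, 254 and 300 in SL non-LRC, and 718 and 334 in GL. The highest value was that of GL 1, more than double GL 2, and the BL groups overlapped. No comparison passed the test. SL against BL was at -0.02 log2 with a 95% interval from -0.56 to 0.51, and the BL label at -0.38 with an interval from -1.06 to 0.29.

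The promoters of Acer1, Elovl4 and Lipm are shown because these were the genes that rose with the label in SL and from BL to SL. The sequences are those of RefSeq on GRCm38.p6, from 250 bases before to 50 bases after the annotated start, written in the direction of transcription. The capitals mark every match to 8 short motifs searched on both strands. The windows are chr17:56982077-56982376 (minus strand) for Acer1, chr9:83806256-83806555 (minus strand) for Elovl4 and chr19:34100693-34100992 (plus strand) for Lipm.
Acer1: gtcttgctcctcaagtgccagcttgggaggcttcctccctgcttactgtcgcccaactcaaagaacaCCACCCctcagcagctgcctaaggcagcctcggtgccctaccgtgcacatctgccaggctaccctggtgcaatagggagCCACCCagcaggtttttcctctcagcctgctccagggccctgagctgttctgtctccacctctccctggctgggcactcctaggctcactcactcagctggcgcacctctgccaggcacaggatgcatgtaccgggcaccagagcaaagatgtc
Elovl4: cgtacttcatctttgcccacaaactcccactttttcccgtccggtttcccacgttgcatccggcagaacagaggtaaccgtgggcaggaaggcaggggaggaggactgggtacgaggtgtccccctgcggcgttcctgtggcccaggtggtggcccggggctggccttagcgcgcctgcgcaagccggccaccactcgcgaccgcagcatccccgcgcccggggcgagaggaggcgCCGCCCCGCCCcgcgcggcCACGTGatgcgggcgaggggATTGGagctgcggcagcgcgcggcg
Lipm: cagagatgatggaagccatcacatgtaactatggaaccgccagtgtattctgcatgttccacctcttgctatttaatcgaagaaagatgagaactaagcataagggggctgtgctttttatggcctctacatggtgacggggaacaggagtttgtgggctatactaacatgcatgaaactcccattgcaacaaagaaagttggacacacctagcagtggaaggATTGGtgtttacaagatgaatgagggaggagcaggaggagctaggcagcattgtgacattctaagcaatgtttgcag
The motif searched for AP-1 was TGANTCA, in which N is any base, that for the Grainyhead-like factors was AACCNGTT, and that for C/EBP proteins was TTGCGCAA. Elements bound by KLF and SP proteins were searched as GGGCGG and as CCACCC. The core promoter element was TATAAA, the binding site of NF-Y was CCAAT, and the E-box was CACGTG. No motif is part of another, though matches may overlap. The Acer1 window held CCACCC at 2 places, that of Elovl4 held GGGCGG at 2 places with 1 match each to the NF-Y and E-box motifs, and that of Lipm held CCAAT alone. The windows also differed in base composition, with 61% G and C and 5 CpG in Acer1, 71% and 35 CpG in Elovl4, and 45.3% and 3 CpG in Lipm, against a median of 52.7% over 32851 promoters. Among all 9 genes, GGGCGG was present in 5 (35.7% of all promoters), CCAAT in 4 (37.4%), CCACCC in 3 (31.5%) and CACGTG in 1 (7.15%). The 9 genes had 10 windows, since Elovl1 had more than 1, and a gene was counted if any of its windows matched. The shares are of single promoters. The AP-1, Grainyhead-like, TATA and C/EBP motifs were in none of the 9, against 7.81%, 2.09%, 13.6% and 0.183% of all promoters. A match is a description of letters in this window and no measure of binding.

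The label was compared first, to ask how cells that kept the H2B-GFP label differ from the non-LRC cells of the same layer. In BL, Acer1 and Elovl4 rose in LRC, and the other 7 genes did not pass. That is 2 of 9 genes, where 0.308% of all genes were called higher and 1.53% in either direction. The difference was above 0 for 8 genes, with a median of 0.65 log2 against 0.046 over all genes, and LRC and non-LRC samples did not overlap for 4, as for 16.4% of all genes. In SL, Acer1, Elovl4 and Lipm rose, 3 of 9 genes where 1.49% of all were called higher, 2.7% lower and 4.19% in either direction. All 9 differences were above 0 with a median of 1.02 (all genes -0.0013), and the SL groups did not overlap for any of the 9, as for 47.5% of all genes. The label effect did not differ detectably between SL and BL, with an adjusted p of at least 0.732 for each gene and 0 of 18193 genes called by limma, of which 1291 had an unadjusted p under 0.05. The interval of that difference was wide, from -0.04 to 1.40 log2 for Elovl4 and from -0.40 to 0.70 for Acer1.

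Several other measures moved with the label. Summed signal of 6 sebaceous gland markers was 5521 to 7966 units in BL LRC, 15479 to 46677 in BL non-LRC, 9972 to 12918 in SL LRC and 18658 to 33513 in SL non-LRC; 6 of the 6 fell with the label in BL and 4 of 6 in SL, and Pparg was never above background in BL LRC. Summed signal of 6 infundibulum and isthmus markers was 9307 to 11890 in BL LRC against 24802 to 36722 in BL non-LRC, and 26138 to 27185 in SL LRC against 75103 to 79215 in SL non-LRC, with 5 and 6 of the 6 called lower. The 5 spinous markers, such as Krt1 and Krt10, stood at 87305 to 108451 units in BL LRC, 58612 to 80260 in BL non-LRC, 125743 to 136443 in SL LRC and 76157 to 88947 in SL non-LRC, and 2 and 3 of 5 rose with the label in BL and SL. In SL, 3 of 6 Langerhans and myeloid markers fell with the label (sums of 1018 to 1489 in LRC and 3279 to 8029 in non-LRC, with Cd207, Csf1r and Ptprc never above background in SL LRC), as did 2 of 5 melanocyte markers (287 to 291 and 624 to 657). The Actb 3' minus 5' log2 difference, a sign of RNA quality, was -0.19 on both SL LRC arrays and -0.039 and -0.095 on SL non-LRC. The part of these in the results was not tested.

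**Figure D2:**
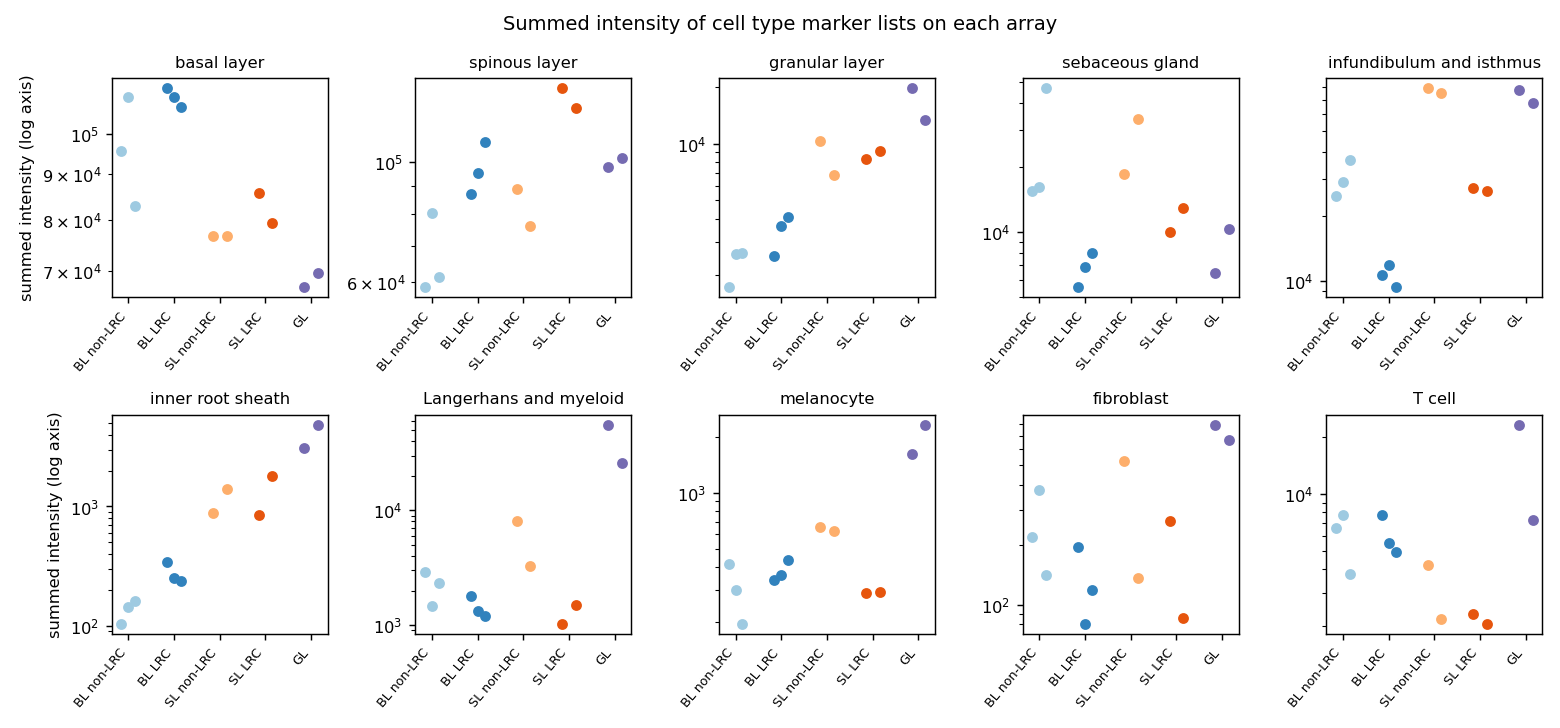
Summed array intensity (log axis) of the marker lists of other cell types and layers on each of the 12 arrays, by sorted fraction. Each point is 1 array. Sebaceous and infundibular sums are lower in LRC than in non-LRC of the same layer, and the Langerhans and myeloid sum reaches 25978 to 55486 units in GL.

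The array set was then taken into account. With it as a term of the model, which borrows the set difference from BL, Elovl4 kept its SL label call (1.49 log2, adjusted p = 0.0339). That set difference rests on BL LRC 1 and BL non-LRC 1, which also lacked the Y-linked signal. The term therefore cannot tell the array set from whatever else set these samples apart, and calls kept or lost with it are not adjusted for the set alone. Acer1 (0.93, adjusted p = 0.0853) and Lipm (0.94, adjusted p = 0.317) lost theirs. The SL label difference of Elovl1, not called before, dropped from 0.82 to 0.049 log2 (adjusted p = 0.977). Those of Abca12, Abhd5, Ugcg, Cers3 and Smpd1 were larger with the term than without it and did not pass. A comparison free of the set is that within its high arrays, SL LRC against BL LRC. There Acer1 was higher in SL by 1.32 log2 (adjusted p = 0.00294), Elovl4 by 1.42 (0.0159) and Ugcg by 1.83 (0.0439), and Lipm by 1.22 without passing (0.0549). Within the low arrays, SL non-LRC exceeded the 1 BL non-LRC sample by 1.36 log2 for Acer1, 0.93 for Elovl4 and 1.18 for Ugcg, and no gene of the 9 passed. The BL label effect within the high arrays was 0.65 log2 for Acer1 (adjusted p = 0.149) and 1.14 for Elovl4 (0.0716), and within the low arrays, with 1 sample a group, 1.30 and 0.86.

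Between layers, 5 genes rose from BL to SL: Acer1, Elovl4, Lipm, Ugcg and Abhd5. This is 5 of 9 where 2.83% of all genes were called higher, 2.2% lower and 5.03% in either direction, and none of the 9 fell. Differences were above 0 for 8 genes, with a median of 0.84 log2 (all genes 0.0025). Only Abhd5 had all SL samples above all BL samples, against 4.12% of genes with groups that did not overlap, since for the others BL LRC reached the range of SL non-LRC. The step was also taken apart by label. SL LRC exceeded BL LRC by 1.24 log2 for Acer1, 1.55 for Elovl4, 1.46 for Lipm and 1.67 for Ugcg (adjusted p 0.00118, 0.00158, 0.00902 and 0.0200), 4 genes where 2.81% of all genes were called in either direction. SL non-LRC exceeded BL non-LRC for Acer1 alone, by 1.08 log2 (adjusted p = 0.00455), where 1.56% of genes were called. The difference between these steps is that of the label effects, which passed for no gene. None of the 9 passed between SL non-LRC and BL LRC (5.58% of genes called). The widest gap was that of SL LRC over BL non-LRC, where 7 of 9 genes passed and 6.84% of all genes did. It came to 6.04-fold for Elovl4, 5.06-fold for Abca12, 4.97-fold for Ugcg, 4.32-fold for Lipm and 4.28-fold for Acer1. From BL to SL, with both label groups in each, granular markers rose too (4 of 6 measured). So did 4 of 6 infundibulum and isthmus markers and 4 of 6 inner root sheath markers, and the part of all these in the result was not tested.

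GL was compared with SL to ask whether these genes rise further in the outermost fraction. They did not rise as a group: no gene of the 9 was higher in GL, and Acer1 and Abhd5 fell, 2 of 9 where 3.91% of genes were called lower, 4.39% higher and 8.3% in either direction. The GL samples were apart from all SL samples for these 2 alone, as for 25.9% of genes. Differences were above 0 for 4 genes, with a median of -0.083 log2 (all genes -0.028). Against SL LRC alone, whose arrays are in the same high set as GL, 4 genes fell: Acer1 by 1.54 log2, Abhd5 by 1.26, Lipm by 1.22 and Elovl4 by 0.95 (adjusted p 9.9e-05, 0.000305, 0.0192 and 0.0311), where 9.37% of genes were called in either direction. Against SL non-LRC, Abhd5 alone fell, by 0.98 log2 (adjusted p = 0.0050; 4.81% of genes called). Against BL, 3 genes rose in GL (Elovl4, Ugcg and Cers3) and Abhd5 fell, where 8.66% and 8.41% of all genes were called higher and lower. The groups did not overlap for 4 of the 9, as for 26.9% of genes. Against BL LRC alone, Ugcg rose by 1.26 log2 (adjusted p = 0.0274) and Abhd5 fell by 0.72 (0.00774), 2 genes where 14.8% were called. Against BL non-LRC, 6 of 9 passed where 14.4% of genes did. Acer1, Elovl4, Lipm, Ugcg and Cers3 were higher in GL, by 0.56, 1.65, 0.89, 1.91 and 1.36 log2 (adjusted p 0.0492, 0.000152, 0.0460, 0.00178 and 0.00997), and Abhd5 fell by 0.67 (0.0133). The comparisons with GL share its 2 samples, so they are no independent repeats.

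GL differed from the other groups in more than the granular markers. All 6 Langerhans and myeloid markers and 3 of 4 T cell markers were higher than in SL, with T cell sums of 7325 to 23087 units on the GL arrays. Of 6 granular markers, 2 rose over SL and 6 over BL. Inner root sheath markers summed to 3105 to 4824 units in GL, 856 to 1789 in SL and 103 to 344 in BL, and melanocyte markers to 1613 to 2322 in GL against 287 to 291 in SL LRC and 624 to 657 in SL non-LRC. The part of these in the GL results was not tested. The Gapdh 3' minus 5' difference was 1.22 on GL 1 and 0.68 on GL 2, and GL 1 had the higher signal of the pair for Lipm, Abca12, Ugcg, Cers3, Smpd1 and Elovl1.

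**Figure D3:**
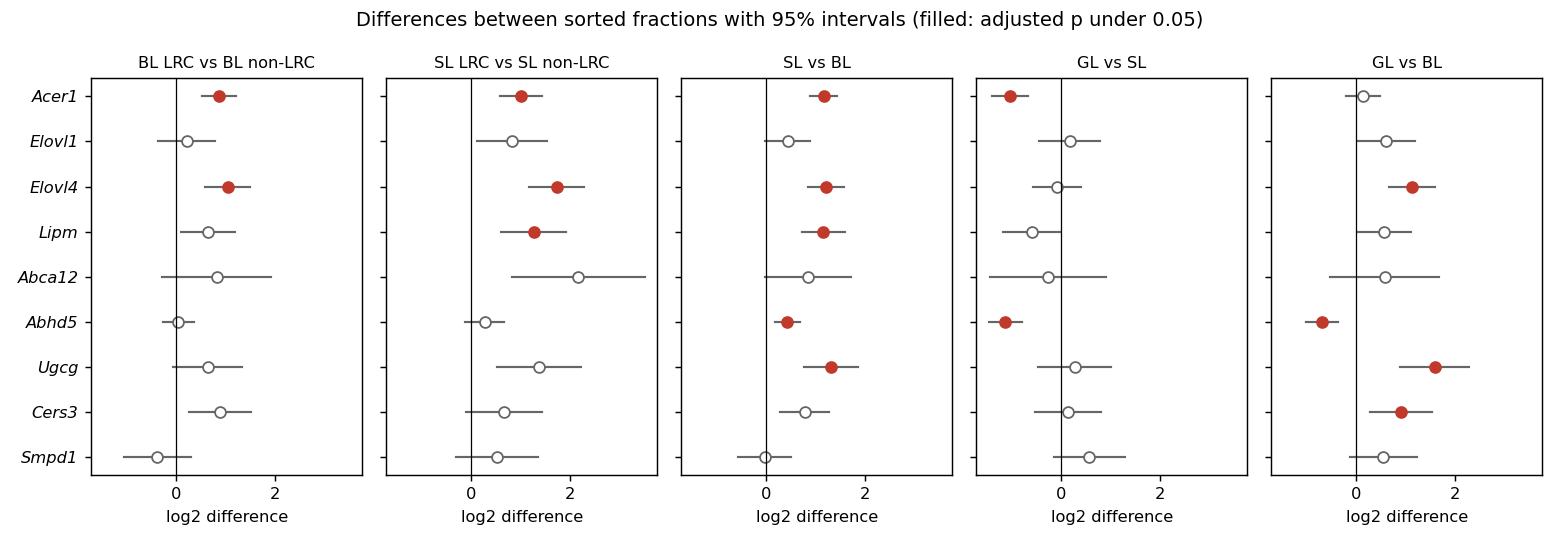
Log2 difference of each of the 9 genes in the comparisons of label and layer, with 95% intervals from the linear model over all 12 arrays. Filled symbols have an adjusted p under 0.05. The label and SL against BL panels lie mostly to the right of 0, with Elovl4 at 1.73 for the label in SL, while in GL against SL Acer1 and Abhd5 are the filled symbols, both left of 0.

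Of the 36 steps between neighbours in the order of group means, 5 passed the test, in 4 genes. Acer1 ran SL LRC, SL non-LRC, BL LRC, GL and BL non-LRC, with its first and last steps called. Elovl4 ran SL LRC, GL, BL LRC, SL non-LRC and BL non-LRC, and Lipm ran SL LRC, GL, SL non-LRC, BL LRC and BL non-LRC, each with the first step called. Abhd5 ran SL LRC, SL non-LRC, BL LRC, BL non-LRC and GL, with the last step called. In the other 5 genes no step passed the test.

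A gene can be read by several probe sets, and 7 of the 9 genes had more than 1. Of 21 probe sets, 19 were above background on at least 6 arrays. In SL the label difference was above 0 for 19 of 19, 6 of them called, and in BL for 18 of 19, 3 called. From BL to SL 18 were above 0 and 8 called, and from SL to GL 10 were above 0 with 2 called lower. The second Elovl4 probe set read 10189 and 10150 units in SL LRC and 3313 and 1926 in SL non-LRC, and it passed with the same signs as the first for the label in BL (1.16 log2, adjusted p = 0.0260) and in SL (2.01, 0.00112) and for SL against BL (1.38, 0.000438). The second Acer1 probe set gave 2.26 log2 for the label in SL (adjusted p = 0.00285), with 3411 and 3970 units in SL LRC and 863 and 682 in SL non-LRC. Its BL label difference of 0.66 (adjusted p = 0.442) and its fall of 1.07 from SL to GL (0.0668) did not pass.

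Calls also differed between probe sets of other genes. Another Elovl1 probe set passed for GL against BL (0.63 log2, adjusted p = 0.0348), while the remaining ones did not (0.68, 0.0678, and 0.48, 0.128). Of all Elovl1 probe sets, that used included, only the one at 0.48 lacks the name suffix for possible cross-hybridisation with other genes. Another probe set for Ugcg did not pass for SL against BL (0.93, 0.0839). The second Lipm probe set did not pass for the label in SL (1.45, 0.0902) and passed for GL against BL (1.17, 0.0406). For Abhd5 the sizes differed as well. Its second measured probe set read 1373, 2096 and 2305 units in the BL LRC samples, 960, 1124 and 1491 in BL non-LRC, 3288 and 3225 in SL LRC, 1439 and 1399 in SL non-LRC, and 1185 and 1575 in GL. There the label difference in SL passed (1.2 ± 0.26 log2, adjusted p = 0.0157) where the first probe set gave 0.28 ± 0.19 (0.507). The fall in GL did not pass, at -0.65 against SL (adjusted p = 0.103) and -0.12 against BL (0.805). Which transcripts each probe set reads was not analysed here.

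**Figure D4:**
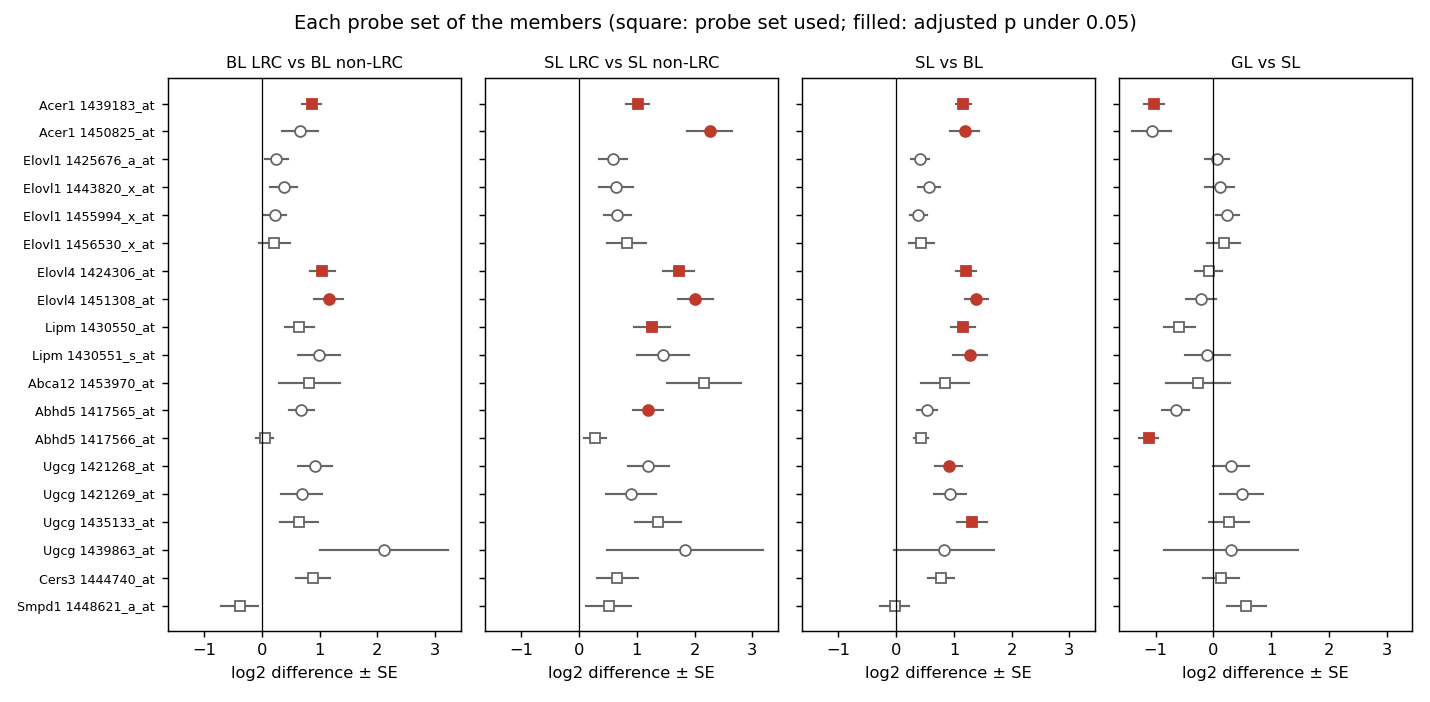
Log2 difference with its standard error for each probe set of the 9 genes above background on at least 6 arrays, in 4 comparisons. Squares are the probe sets used for the gene. The Elovl4 pair lies together, whereas the Abhd5 probe sets part for the label in SL (0.28 and 1.2) and for GL.

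The other genes of the pathway were read from 6 lists, written with earlier results of these data known, of which 64 of 68 genes were measured. With the label in BL none of the 64 rose and 5 fell, where 0.308% of all genes rose and 1.23% fell, and their median was -0.036 log2. Fa2h, which hydroxylates fatty acids for sphingolipids, fell by 4.55 ± 0.60 log2 (adjusted p = 0.000439), from between 1014 and 7883 units in BL non-LRC to between 68 and 141 in BL LRC. Elovl6, which elongates shorter fatty acids, fell by 3.14 ± 0.47 (adjusted p = 0.00129), and the lipid droplet protein Plin2 by 2.14 ± 0.36 (0.00446). The ceramide synthase Cers4 (adjusted p = 0.00271) and the elongase Elovl3 (0.0351) fell too, to levels that were above background on only some LRC arrays, so no size is given. The count that fell was 8 with the replicate block, 9 with median centring and 4 to 7 with 1 BL sample left out. The block ties same-numbered samples of all groups, not those of BL alone. Sebaceous marker sums, given above, were lower in the same BL LRC samples, and their part in these differences was not tested.

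In SL, 4 of the 64 rose with the label and 5 fell, where 1.49% and 2.7% of all genes did. Fa2h fell by 3.40 ± 0.74 log2 (adjusted p = 0.0133), Plin2 by 2.17 ± 0.45 (0.00982), the monoglyceride lipase Mgll by 2.34 ± 0.45 (0.00634) and Cers4 fell too (0.0195), with no size given. The ceramide synthase Cers2, which prefers chains shorter than those Cers3 uses, fell by 2.37 ± 0.29 (adjusted p = 0.000212), from 944 to 1024 units in SL non-LRC to 164 to 220 in SL LRC, and kept its call with the array-set term (0.00219). Cyp4f39, which hydroxylates the ultra-long fatty acid so that linoleic acid can be attached, rose by 1.42 ± 0.32 (adjusted p = 0.0161), from 406 to 478 units to 1024 to 1366. Sptssa, Acer3 and Sgms1 rose by 0.72, 0.94 and 1.01 log2 (adjusted p 0.0135, 0.0189 and 0.0254). All 4 rises were lost with the array-set term (adjusted p 0.0970 to 0.169), with median centring (0.0512 to 0.167) and in the fits without SL LRC 1, SL LRC 2 or SL non-LRC 2. The falls numbered 3 with the array-set term, where Mgll (0.0851) and Cers4 (0.228) were lost, and 1 without SL non-LRC 2.

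From BL to SL 12 of the 64 rose and none fell, where 2.83% and 2.2% of all genes did, with a median of 0.33 log2 (all genes 0.0025). In the list of acylceramide assembly and lipid envelope genes 4 of 7 rose: the epoxide hydrolase Ephx3 by 2.36 ± 0.26 log2 (adjusted p = 3.8e-05), Cyp4f39 by 1.25 ± 0.21 (0.00126), the acylceramide-forming transacylase Pnpla1 by 1.19 ± 0.28 (0.0201), and the crosslinking enzyme Tgm1 (0.00613), whose BL level was at background on part of the arrays. Of 13 fatty acid genes, Elovl7 rose (0.81, adjusted p = 0.0114), and of 13 measured genes of de novo synthesis, Sptlc3 (0.69, 0.0106). Pnpla3, Fabp5 and Dgat2 of 10 neutral lipid genes, Gltp of 11 in glucosylceramide and sphingomyelin handling, and Sphk1 and Sgpl1 of 10 in ceramide breakdown made up the rest. Without the 2 arrays lacking Y-linked signal 8 rose, 6 rose without SL non-LRC 1 and 7 without SL LRC 2, and leaving out any other sample gave 9 to 17.

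GL against SL gave 1 rise and 4 falls among the 64, near the 4.39% and 3.91% of all genes. Hacd1, a dehydratase of the elongation cycle, rose by 2.19 ± 0.53 log2 (adjusted p = 0.0146; 0.0561 with the array-set term), a call lost without either GL sample. Sphk2, a sphingosine kinase, fell by 1.23 ± 0.19 (0.000541), and Sptlc3, a subunit of serine palmitoyltransferase, by 1.18 ± 0.20 (0.00132), while Cers6 (0.68) and Sptssa (0.49) fell by less. With the replicate block, which ties samples by number although the SL numbers do not pair, 4 rose and 5 fell. Against BL, 14 rose and 5 fell, where 8.66% and 8.41% of all genes did, so that the falls were near the background. Ephx3 rose by 2.69 ± 0.33 log2 (adjusted p = 1.8e-05), Hacd1 by 2.40 ± 0.50 (0.00241), the sphingomyelin synthase Sgms2 by 2.04 ± 0.38 (0.00106), Pnpla1 by 1.38 ± 0.36 (0.0127) and Elovl5 by 1.33 ± 0.31 (0.00634). Sphk2 fell by 1.69 ± 0.18 (adjusted p = 4.0e-06) and the acid ceramidase Asah1 by 0.83 ± 0.19 (0.00493). Without GL 1 these counts were 6 and 1, and without GL 2 they were 4 and 3.

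**Figure D5:**
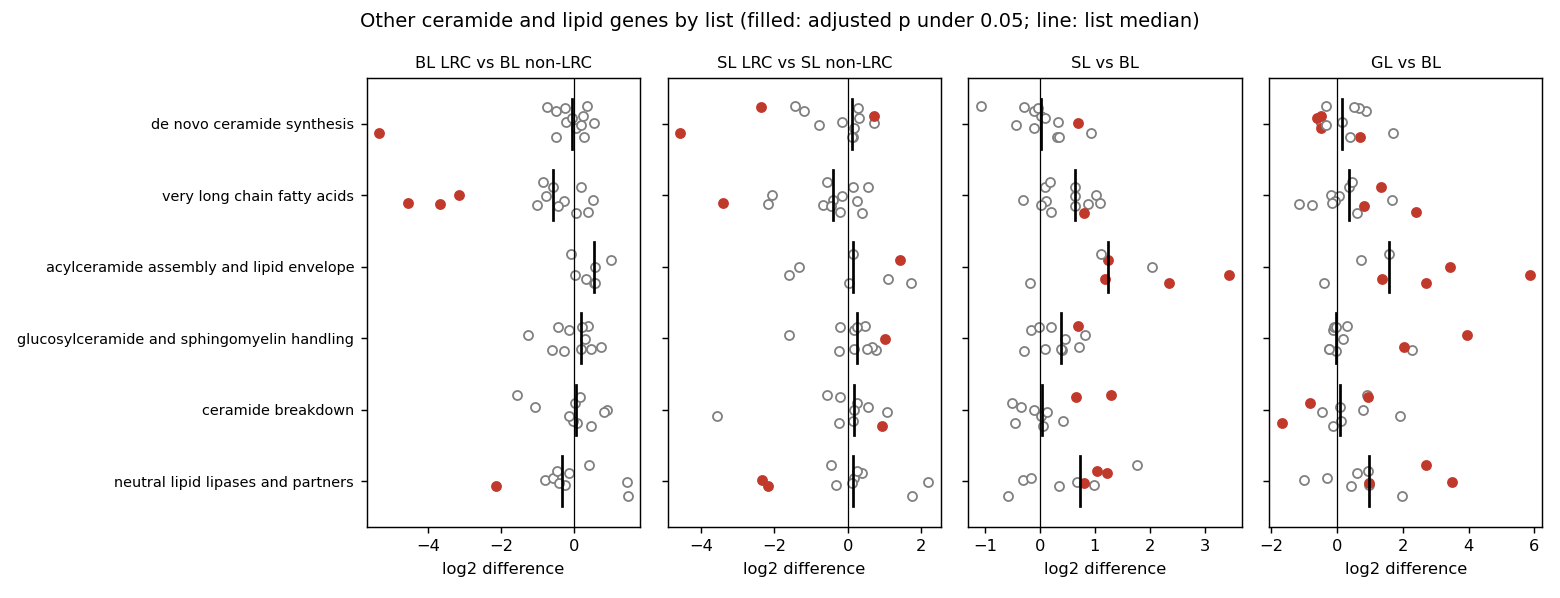
Log2 difference of each measured gene of the 6 pathway lists in 4 comparisons, each panel with its own axis. Each point is 1 gene, filled where its adjusted p is under 0.05, and the line is the list's median. The acylceramide assembly list has its median at 1.25 for SL against BL, and the fatty acid list at -0.58 for the label in BL.

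Profiles over the 12 samples were compared last. Likeness was the root mean square distance between log2 profiles, each centred on its own mean, over 13613 genes above background on at least 6 arrays. Cyp4f39 was the third nearest gene to Elovl4, at 0.28 log2, after the ammonia transporter Rhbg (0.23) and the thioesterase Them5 (0.27), against a spread of 0.89 in Elovl4 itself. Acer1 was nearest to the lipase Abhd6 (0.29), Tlcd3a (0.29) and the calmodulin-like Calm4 (0.31), with a spread of 0.70. Lipm was nearest to Calm4 as well (0.27), then Tmprss4 (0.31) and Dock6 (0.32), with a spread of 0.72. Cers3 was nearest to the tight junction gene Marveld2 (0.20), Epha1 (0.28) and Flt4 (0.28), and Ugcg to Lgals12 (0.24), Atp10b (0.34) and Itgb5 (0.40). Abhd5, with the smallest spread of these at 0.40, was nearest to Cnn2, Pou2f3 and Tbc1d22b (0.17 each). Among the 9 genes the closest pair was Acer1 and Lipm (0.40), then Elovl4 and Lipm (0.44).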

How the data were processed

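RNA of 12 sorted samples (5 ng each) was amplified and hybridised to 1 array each, per the labels' protocols. The deposited values are linear intensity values, which the authors had scaled so that each array's 2% trimmed mean is 500.0 (recomputed here), with a floor at 1. The summarisation software is not given in the sources used here, and scanner-level data were not used here. The number of arrays limits the precision.

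Of 45101 probe sets, 34945 map to 1 gene by the platform annotation, 932 to several and 9160, beside 64 controls, to none. The probe set of highest mean log2 was kept for each of 18193 genes, with log2 taken of the intensity and nothing added. Symbols were taken from RefSeq (GRCm38.p6) by gene identifier where it held the gene. How many differed from the platform symbols was not determined. The design had not settled the scale of the values, and the linear scale was read from them. Background is the 95th percentile of 27 bacterial probe sets per array. Where a group lay at background on some of its arrays, no size is given.

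Limma 3.58.1 in R 4.3.3 fitted 5 group means over all 12 arrays, used eBayes with a mean-variance trend, and adjusted p by Benjamini-Hochberg over 18193 genes (threshold 0.05). Errors are moderated standard errors, and adjusted p-values come from limma throughout. SL and BL are means of their label groups. The fit was also run on simulated data with independent noise. These had no array-set or replicate structure, so the run does not bear on those limits. Figures used Python 3.11.15 and matplotlib 3.10.9.

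The genes, pathway lists, marker lists and tests were chosen with earlier results of these data known. The text names the 9 genes, up to 4 called genes of smallest p per pathway list and comparison, the 3 nearest profiles of each gene called in a label or layer comparison, and markers. Same-numbered BL samples deviated together over 13614 genes (r = 0.190, 0.109 and 0.112), so BL numbers pair the samples by this check. The SL pairs (0.0088) do not, and GL was not part of the check. The main fit treated the BL samples as unpaired. The replicate block gave same-numbered arrays of all groups a common term. The 2 arrays lacking Y-linked signal thereby shared a term with SL and GL arrays that carried it. Calls kept or lost with the block are therefore not adjusted for BL pairing alone. Alternatives were quantile normalisation, median centring, log2(value + 16), a background filter, other probe sets, the array set, no trend, only the groups compared, a replicate block and each sample left out. The fit without the 2 arrays lacking Y-linked signal was added after the data were seen.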

Additional observations from a re-analysis of the deposited data

How the results depend on the processing

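Counts are of the 9 genes called. Within the high arrays, SL against BL was SL LRC against BL LRC, and GL against SL was GL against SL LRC. Within the low arrays, SL against BL was SL non-LRC against the 1 BL non-LRC sample. These fits change the groups compared, so their counts do not show the processing alone. For the label in BL (2 genes) the count was 0 with median centring, within the high arrays, within the low arrays, without the mean-variance trend, with only the groups compared and without the arrays lacking Y-linked signal, and 1 with the mean of all probe sets or with every probe set of a gene required; leaving out 1 sample gave 0 to 2 (0 for BL LRC 3 and 1 for BL non-LRC 3). For the label in SL (3) it was 4 with log2(value + 16), the background filter, the mean of all probe sets or only the groups compared, 2 with median centring, 1 with the array-set term and 0 without the trend, and 1 to 2 with 1 sample left out. For SL against BL (5) it was 3 with the mean of all probe sets, within the high arrays, without the trend and with every probe set required, 0 within the low arrays, and 4 to 6 with 1 sample left out. For GL against SL (2) it was 1 with the mean of all probe sets, 4 within the high arrays, 0 with every probe set required, and 2 in each fit with 1 sample left out. For GL against BL (4) it was 2 with every probe set required and 1 to 4 with 1 sample left out, 1 without GL 1. The replicate block left 2, 3, 4, 2 and 3 genes called in these 5 comparisons and changed no other call than those of Abhd5 and Cers3 given above. The block ties samples across groups by number, so its counts do not show the pairing of BL samples alone. The cause of these changes was not tested.

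Median centring moved the share of called genes that were higher from 20.1% to 4.93% for the label in BL, from 35.5% to 18.2% in SL, from 56.3% to 69.9% for SL against BL and from 52.9% to 40% for GL against SL. It moved the median of all genes from 0.046 to -0.195, from -0.0013 to -0.142, from 0.0025 to 0.094 and from -0.028 to -0.17.

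Over single genes and alternatives, 985 values kept sign and side of the threshold, 75 lost and 12 gained a call, and 32 changed sign, none of them a called value. These were Elovl1 (-0.021 with median centring, -0.023 to 0.49 with 1 sample left out) and Abhd5 (-0.19 with median centring, -0.051 to 0.11 with 1 sample left out) for the label in BL. For SL against BL they were Smpd1 at 0.057 (quantile), 0.069 (median centring), 0.092 (mean of probe sets), 0.55 (high arrays), 0.040 (without the arrays lacking Y-linked signal) and, with 1 sample left out, 0.040, 0.076, 0.020 and 0.038. For GL against SL they were Cers3 (-0.011 with median centring, -0.20 in the high arrays, -0.068 without GL 1 to 0.34 without GL 2), Elovl1 (-0.21 with the array-set term, -0.24 in the high arrays, -0.012 without SL LRC 1 to 0.36 without SL LRC 2), Ugcg (-0.41 in the high arrays, -0.26 without GL 1 to 0.80 without GL 2), Elovl4 (0.012 without SL non-LRC 1, 0.13 without GL 1, down to -0.30 without GL 2), Smpd1 (-0.12 with the mean of probe sets) and Abca12 (0.31 without GL 2, -0.84 without GL 1). For GL against BL they were Smpd1 (-0.028 with the mean of probe sets, -0.0025 without GL 1 to 1.10 without GL 2) and Abca12 (-0.00023 without GL 1 to 1.15 without GL 2). For the difference of label effects they were Elovl1 (-0.17) and Cers3 (0.27) with the array-set term. Cers3 with 1 sample left out (-0.52 to 0.088) and Ugcg by another probe set (-0.28) changed sign there too. Values in the high arrays for SL against BL and GL against SL have SL LRC alone for SL, as stated above.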
